A study of Homo sapiens with 9 samples.

Results

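The HSP70 family and its HSP110 relatives were described at 9 genes: HSPA6, HSPA1L, HSPA8, HSPA4, HSPA4L, HSPH1, HSPA9, HSPA13 and HSPA14. They were chosen by name, as every probe set whose platform gene symbol is 1 of them, out of 19775 genes with a symbol of their own on the array. A probe set is a group of short probes that report on a transcript together. In all, 8 of the 9 genes were read by 22 probe sets that carry their symbol alone. HSPA8 was read only by 4 probe sets that also carry the symbols of 2 small nucleolar RNA genes, SNORD14C and SNORD14D, and these 4 were described but not counted among the 22. The shared symbols fit the loci, since SNORD14C (chr11:123059335-123059422) and SNORD14D (chr11:123058909-123058995) both lie inside HSPA8 (chr11:123057489-123062462, GRCh38.p14).

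Jurkat Clone E-6 cells, an established human T cell line of leukaemic origin, were placed in electroporation cuvettes and divided into 3 groups of 3 arrays. Sham cells stood on the pulser with no power applied, nsEP cells received 100 pulses, each lasting 10 ns with a field of 150 kV/cm, while heat shock cells were warmed in a circulating water bath in the same kind of cuvette. All groups shared the growth medium and the cuvette, RNA was taken 4 h after exposure, and the labels call the 3 arrays of a group biological replicates. A single cultured line was used, so the values describe that line only.

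HSP70 proteins bind exposed greasy stretches of unfolded proteins and release them in a cycle of ATP binding and hydrolysis. J-domain proteins (HSP40) start the hydrolysis, and nucleotide exchange factors, among them the HSP110 proteins, which are themselves distant HSP70 relatives, let the ADP go. Some members are made only under stress, when heat shock factors bind repeats of the unit GAA and its reverse complement in their promoters, while others are made in every growing cell or serve a compartment such as the mitochondrion.

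The array of nsEP replicate 3 stood apart at -172.6 on the second principal component, where the other 8 lay between -30.6 and 62.6, so the differences between nsEP and sham below are also given without it, for members, their ratios inside arrays and the partner genes named. After heat shock the median of all probe sets lay 0.18 higher than in sham on the log2 scale as deposited, and this shift became -0.01 once quantiles were equalised, -0.13 once each array was centred on its median and -0.85 once arrays were scaled by the poly-A spike-in transcripts. Small changes of the members after heat shock are therefore given with the spike-in scaling, the one that moves them most. The mean log2 spike-in signal itself spread within groups, from 9.74 to 10.74 in sham, 9.89 to 11.16 in nsEP and 11.07 to 11.69 after heat shock. This scaling can therefore also widen the spread between replicates, and a call lost under it does not show that a change is absent. All 10 T cell markers lay in the brightest quartile of probe sets in each group, with a summed log2 signal of 15.9 to 16.0 in sham, 15.9 to 16.4 in nsEP and 15.9 to 16.3 after heat shock, and CD2 and TRAT1 fell after heat shock. Of the monocyte markers 6 were measured and none lay in the brightest quartile. Their summed log2 signal was 8.45 to 8.57 in sham and 9.16 to 9.47 after heat shock, where CD14 rose from a mean of 2.29 to 7.07. Of the B cell markers 6 were measured and 1 lay in the brightest quartile in each group, with summed signals of 9.79 to 10.3, 10.1 to 10.7 and 10.1 to 10.6. The part of these marker levels in the members' values was not tested. Cell death was not measured in these samples. In a separate viability assay the paper scored most Jurkat cells as not viable 4 h after the same nsEP exposure, and its part in the nsEP values was not tested. In bulk RNA fewer cells that carry a transcript and less of it per cell cannot be told apart.

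After heat shock, 9 of the 22 probe sets rose and 1 fell (limma, Benjamini-Hochberg adjusted p under 0.05), while 1.81% of all 54613 probe sets rose and 2.36% fell. The 9 belonged to 4 genes, HSPA6, HSPA1L, HSPA4L and HSPH1, and the 1 that fell to HSPA13. After nsEP, 0 of the 22 rose and 0 fell, against 0.0513% and 0.00732% of all probe sets. At an unadjusted p under 0.05, 3 of the 22 were higher after nsEP and 0 were lower, against 3.06% and 3.93% of all probe sets. These were both probe sets of HSPA6 and 1 of HSPA13, so they stand for 2 genes. The methods' t-test with the same adjustment also called 0. Without nsEP replicate 3 again 0 of the 22 passed, with 6 at an unadjusted p under 0.05 in either direction against 9.56% of all probe sets. All 3 nsEP arrays lay above all 3 sham arrays at 3 of the 22 (HSPA6, HSPA1L and HSPA13) and below them at 1 (HSPA4L), against 5.07% and 6.51% of all probe sets. For heat shock against sham these counts were 12 and 1, against 16.6% and 9.86%. Between the exposures, 9 probe sets of the same 4 genes were higher after heat shock than after nsEP and 2 of HSPA13 were lower, against 2.65% and 2.31% of all probe sets. With the spike-in scaling, 5 of the 22 were higher after heat shock than in sham (HSPA6, HSPA1L and 1 probe set of HSPH1) and 2 lower (HSPA13), and against nsEP 5 were higher and 2 lower. The median log2 ratio of the 22 was 0.46 after heat shock and 0.09 after nsEP, beside 0.18 and -0.01 over all probe sets. Without nsEP replicate 3 the nsEP medians were 0.19 and -0.04.

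**Figure D1:**
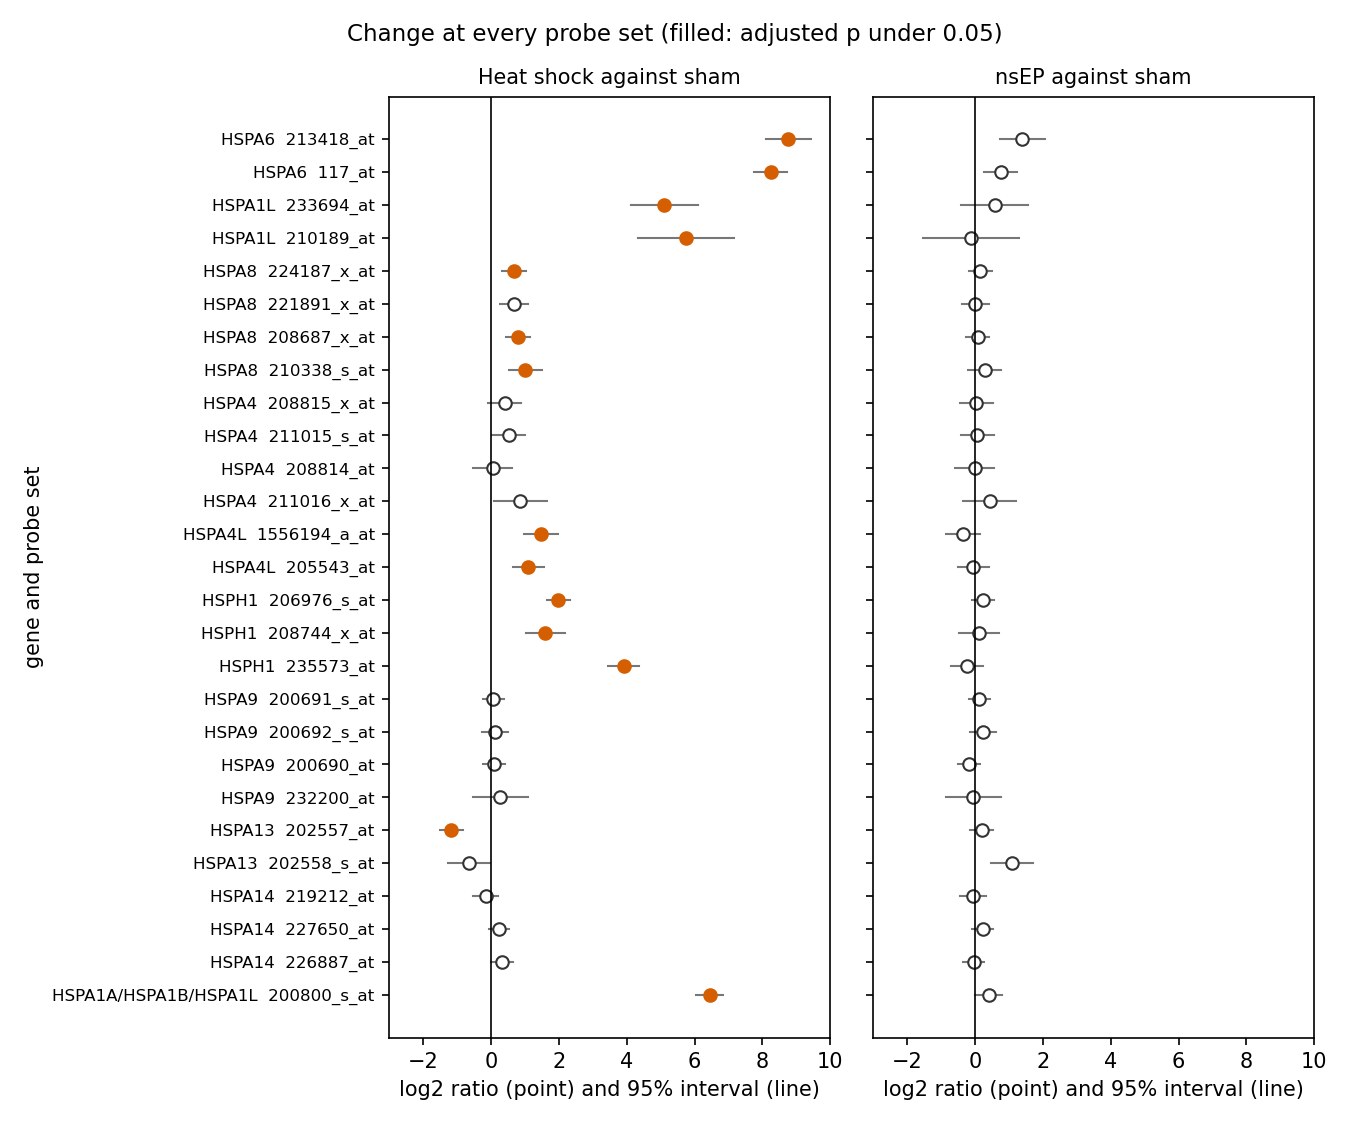
Log2 ratio to sham of every probe set of the members (rows, with gene and probe set) after heat shock (left) and after nsEP (right), as a point with its 95% interval from the fit to all 9 arrays, filled where the adjusted p was under 0.05. The rows named HSPA8 also carry SNORD14C and SNORD14D, and the last row is shared by HSPA1A, HSPA1B and HSPA1L. The HSPA6 points lie at 8.77 and 8.25 on the left, and no point is filled on the right.

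HSPA6, the HSP70 that human cells make almost only under stress, showed the largest rise of the members after heat shock. Its brighter probe set (213418_at) read 5.82, 6.34 and 6.44 on the log2 scale in the 3 sham arrays, 6.74, 8.05 and 8.0 in the nsEP arrays and 14.98, 14.93 and 14.99 in the heat shock arrays. The 3 groups did not overlap, with heat shock far above both others and nsEP replicate 1 closest to sham. The rise after heat shock was 8.77 ± 0.30 (SE of the fit, n = 3 against 3), 435-fold, with an adjusted p of 1.01e-08 by limma. With 32 signal units added before the log2, which damps the low sham values, it was 8.24.

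The other HSPA6 probe set (117_at) read 6.44, 6.88 and 6.03 in sham, 6.87, 7.47 and 7.25 after nsEP and 14.80, 14.60 and 14.70 after heat shock. Its rise after heat shock was 8.25 ± 0.23, again with no overlap. The highest log2 signal on the heat shock arrays was 15.8 to 15.9. Whether the top of the scanner's range held the heat shock values down was not tested. HSPA7, a neighbouring copy of HSPA6 with nearly the same sequence, had no probe set of its own, so the signals of the pair cannot be told apart here.

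After nsEP the 213418_at probe set of HSPA6 was 1.39 ± 0.30 higher than in sham, 2.63-fold, with an unadjusted p of 0.000525 and an adjusted p of 0.208 by limma, which did not pass. The 117_at probe set was 0.75 ± 0.23 higher (adjusted p = 0.462), or 0.73 without replicate 3, and there nsEP replicate 1 at 6.87 lay inside the sham range. The array that decided the call at 213418_at was nsEP replicate 1, the lowest of the nsEP values there. Leaving it out raises the difference and narrows the nsEP spread, so the call made without it is no added support for a rise. Without replicate 1 the difference was 1.82 ± 0.20, with an adjusted p of 0.00590 by limma. Without replicate 2 it was 1.17 (adjusted p = 0.532). Without replicate 3, the array that stood apart, it was 1.19 (adjusted p = 0.243). The 95% interval over all arrays ran from 0.74 to 2.05, and the difference between heat shock and nsEP was 7.37 ± 0.30.

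The sequence ahead of HSPA6 is shown because the gene is the member that responded most. It covers the 250 bases before the annotated start, chr1:161524290-161524539 on the + strand of GRCh38.p14 (RefSeq), and capitals mark matches to GAANNTTC or TTCNNGAA, the core of a heat shock element. Each of these motifs reads the same on both strands.
HSPA6: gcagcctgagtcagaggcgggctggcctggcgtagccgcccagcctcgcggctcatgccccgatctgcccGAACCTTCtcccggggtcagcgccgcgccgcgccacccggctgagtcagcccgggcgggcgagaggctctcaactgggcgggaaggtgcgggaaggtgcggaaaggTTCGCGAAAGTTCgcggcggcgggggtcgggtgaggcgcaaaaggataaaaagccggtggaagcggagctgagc
The window held 3 matches, at -180 to -173, -74 to -67 and -69 to -62 from the start, and the last pair overlap to form 1 run of 3 units (TTCNNGAANNTTC). At least 1 match of either kind was found in 11.6% of 35116 windows of this length (5.78% for GAANNTTC and 6.62% for TTCNNGAA), and a run of 3 units, TTCNNGAANNTTC or GAANNTTCNNGAA, in 0.441%. A run holds both shorter motifs, so these counts overlap.

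HSPA1L, a close relative of the inducible HSPA1A best known from the testis, was dim in sham and nsEP cells and rose after heat shock. Its 233694_at probe set read 3.95, 3.56 and 3.58 in sham, 4.16, 4.28 and 4.41 after nsEP and 9.05, 9.0 and 8.38 after heat shock. The rise after heat shock was 5.11 ± 0.45 (adjusted p = 5.40e-05, limma), with no overlap. Since its sham and nsEP means fell in the lowest quartile of signal, the size depends on low signals, and with 32 signal units added it was 3.42.

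The 210189_at probe set of HSPA1L spread more at the low end, at 2.54, 4.14 and 3.00 in sham and 3.92, 3.45 and 1.96 after nsEP, against 9.02, 9.01 and 8.89 after heat shock. Its rise was 5.75 ± 0.65, or 3.66 with 32 units added. After nsEP the log2 ratio was 0.58 at 233694_at (adjusted p = 0.874), where the 3 nsEP arrays lay above the 3 sham arrays, and -0.12 at 210189_at (adjusted p = 0.991), where they overlapped. Without nsEP replicate 3 they were 0.52 and 0.46. Both probe sets therefore separate heat shock from the other groups and do not settle an order of sham and nsEP. Whether transcripts of the related HSPA1A added to their signal after heat shock was not tested.

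A probe set labelled HSPA1A, HSPA1B and HSPA1L together (200800_s_at) read 8.67, 9.23 and 9.23 in sham, 9.62, 9.58 and 9.16 after nsEP and 15.53, 15.43 and 15.51 after heat shock. It rose by 6.44 ± 0.18 after heat shock, and its log2 ratio after nsEP was 0.41 (adjusted p = 0.698), or 0.56 without replicate 3 (adjusted p = 0.324). It does not tell HSPA1L from the pair of near-identical major inducible HSP70 genes, and neither of that pair had a probe set of its own. HSPA1L (chr6:31809619-31815283) and HSPA1A (chr6:31815543-31817942) stand 259 bases apart, so the 250 bases ahead of HSPA1L, chr6:31815284-31815533 on the - strand of GRCh38.p14 (RefSeq), lie between the genes and are shown for that reason, with the motif match in capitals.
HSPA1L: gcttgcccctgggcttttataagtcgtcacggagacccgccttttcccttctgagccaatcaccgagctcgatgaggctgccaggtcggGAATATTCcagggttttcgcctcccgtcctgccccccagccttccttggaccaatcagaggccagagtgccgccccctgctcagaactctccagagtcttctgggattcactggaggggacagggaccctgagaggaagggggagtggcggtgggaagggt
There was 1 match, at -161 to -154 from the start, and no run of 3 units.

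HSPA8, the constitutive HSC70 that also strips clathrin coats, had a small rise that depends on the scaling. Its brightest probe set (224187_x_at) read 14.96, 14.88 and 15.12 in sham, 15.05, 15.06 and 15.34 after nsEP and 15.71, 15.70 and 15.61 after heat shock. The heat shock arrays lay above the 6 others, and sham and nsEP overlapped. The log2 ratio after heat shock was 0.69 ± 0.16, 1.61-fold, with an adjusted p of 0.0332 by limma. On the heat shock arrays between 3 and 15 probe sets were brighter than this one, so it lay close to the top of the scale, and whether that held its values down was not tested.

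Leaving out any of the 6 arrays of that comparison moved the adjusted p of HSPA8 above the threshold, to between 0.0560 and 0.132, with a ratio of 0.64 to 0.75. The ratio was 0.22 after quantile normalization, 0.38 with arrays centred and -0.34 with the spike-in scaling, so its direction turned in the last. In all, 3 of the 4 HSPA8 probe sets passed after heat shock, with ratios of 0.68 to 1.02 over the 4. None of these calls was kept under another scaling, since 0 of the 4 passed after quantile normalization, with arrays centred or with the spike-in scaling, and in the last the ratios of all 4 were negative, from -0.35 to -0.01. Set directly against nsEP, heat shock was 0.53 higher at the brightest probe set (adjusted p = 0.0889) and 1 of the 4 passed. Without nsEP replicate 3 the brightest passed, at 0.62 (adjusted p = 0.0251). After nsEP the ratio to sham was 0.16, with a 95% interval of -0.19 to 0.51, and 0.07 without replicate 3.

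The window ahead of HSPA8 held 4 matches, and it lies inside the annotated gene because a longer transcript starts further out. Only the stretches around the matches are shown, chr11:123062346-123062374 and chr11:123062171-123062199 on the - strand of GRCh38.p14 (RefSeq), because each holds a run of 3 units, as the HSPA6 window does.
HSPA8, distal: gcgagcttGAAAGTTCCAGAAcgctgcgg
HSPA8, proximal: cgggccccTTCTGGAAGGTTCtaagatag
The runs span -230 to -218 and -55 to -43 from the start.

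HSPA4, HSPA4L and HSPH1 are the cytosolic HSP110 proteins, which exchange the nucleotide on HSP70 and work with it in pulling apart aggregates. They differed after heat shock. HSPA4 (208815_x_at) read 12.46, 11.81 and 12.24 in sham, 12.18, 11.81 and 12.63 after nsEP and 12.73, 12.28 and 12.71 after heat shock. All groups overlapped. The ratio after heat shock was 0.40 ± 0.23 with a 95% interval of -0.09 to 0.90 (adjusted p = 0.379), and at its 3 other probe sets it ran from 0.04 to 0.86 with 0 of the 4 called by limma and 2 at an unadjusted p under 0.05. With the spike-in scaling all 4 ratios turned negative, to -0.62 at 208815_x_at and to between -0.98 and -0.17 over the 4, and 0 passed, so no direction is settled for HSPA4. After nsEP the ratio at 208815_x_at was 0.04, or -0.17 without replicate 3. Over the 4 probe sets the nsEP ratios ran from -0.01 to 0.43, with 0 called. Without replicate 3 the 3 other probe sets lay above sham, at 0.29 (211015_s_at), 0.11 (208814_at) and 0.84 (211016_x_at). The last did not pass (adjusted p = 0.404, limma).

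HSPA4L, an HSP110 abundant in the testis, was higher after heat shock at both probe sets. The brighter (1556194_a_at) read 9.78, 9.78 and 9.62 in sham, 9.56, 9.34 and 9.19 after nsEP and 11.32, 10.61 and 11.65 after heat shock. Heat shock lay above the other groups and nsEP below sham, with no overlap between any pair of groups. The rise after heat shock was 1.47 ± 0.23, 2.76-fold (adjusted p = 0.00314, limma). The nsEP difference of -0.36 did not pass (adjusted p = 0.826), and was -0.28 without replicate 3. The ratio after heat shock passed at 1.55 after quantile normalization and at 1.16 with arrays centred. With the spike-in scaling it was 0.44 and did not pass.

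The 205543_at probe set of HSPA4L read 9.46, 8.98 and 9.03 in sham, 9.36, 9.08 and 8.87 after nsEP and 10.61, 9.98 and 10.17 after heat shock. Its rise after heat shock was 1.10 ± 0.21 (adjusted p = 0.0117). It passed at 1.19 after quantile normalization and at 0.79 with arrays centred, and was 0.07 with the spike-in scaling, where it did not pass. Sham and nsEP overlapped, with a ratio of 0.06 without replicate 3. Of the 3 annotated start windows of HSPA4L, 1 held a match, at -170 to -163 from its start. That window lies within the gene, and the stretch at chr4:127782144-127782167 on the + strand is shown as the single match among the HSP110 genes.
HSPA4L: ccagatctTTCTCGAAcccgcagc

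HSPH1, the HSP110 long known as heat inducible, rose at its 3 probe sets after heat shock. The brightest (206976_s_at) read 12.69, 12.82 and 12.98 in sham, 12.92, 13.22 and 13.03 after nsEP and 14.81, 14.70 and 14.94 after heat shock. The heat shock arrays lay well above the rest, and sham and nsEP overlapped. The rise was 1.98 ± 0.15, 3.96-fold (adjusted p = 1.52e-05, limma). It passed at 1.69 after quantile normalization and at 1.68 with arrays centred, and was 0.96 with the spike-in scaling, where it did not pass.

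The probe sets of HSPH1 gave unequal sizes. At 235573_at the arrays read 8.80, 9.06 and 8.97 in sham, 8.70, 8.34 and 9.10 after nsEP and 12.90, 12.50 and 13.16 after heat shock, a rise of 3.91 ± 0.22, 15-fold. Its 95% interval of 3.44 to 4.38 did not meet that of 206976_s_at, 1.66 to 2.31, and it passed under the spike-in scaling as well, at 2.88. The third, 208744_x_at, rose by 1.6 ± 0.27, or by 0.58 with the spike-in scaling, where it did not pass. All 3 probe sets passed after quantile normalization and with arrays centred. After nsEP the ratios of the 3 ran from -0.23 to 0.23 with none called, and without replicate 3 they were 0.24, 0.20 and -0.42.

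The sequence ahead of HSPH1, chr13:31162389-31162638 on the - strand of GRCh38.p14 (RefSeq), is shown as that of a member that rose and whose window held neither motif.
HSPH1: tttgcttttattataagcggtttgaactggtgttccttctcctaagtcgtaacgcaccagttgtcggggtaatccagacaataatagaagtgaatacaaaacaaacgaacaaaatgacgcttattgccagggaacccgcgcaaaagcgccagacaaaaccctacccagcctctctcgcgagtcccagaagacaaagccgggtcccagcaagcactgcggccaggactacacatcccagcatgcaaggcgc
The windows of HSPA4, HSPA9 and HSPA13 also held 0 matches, and HSPA14 had no window in the table used. These letters being absent says only that they are not in this stretch.

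**Figure D2:**
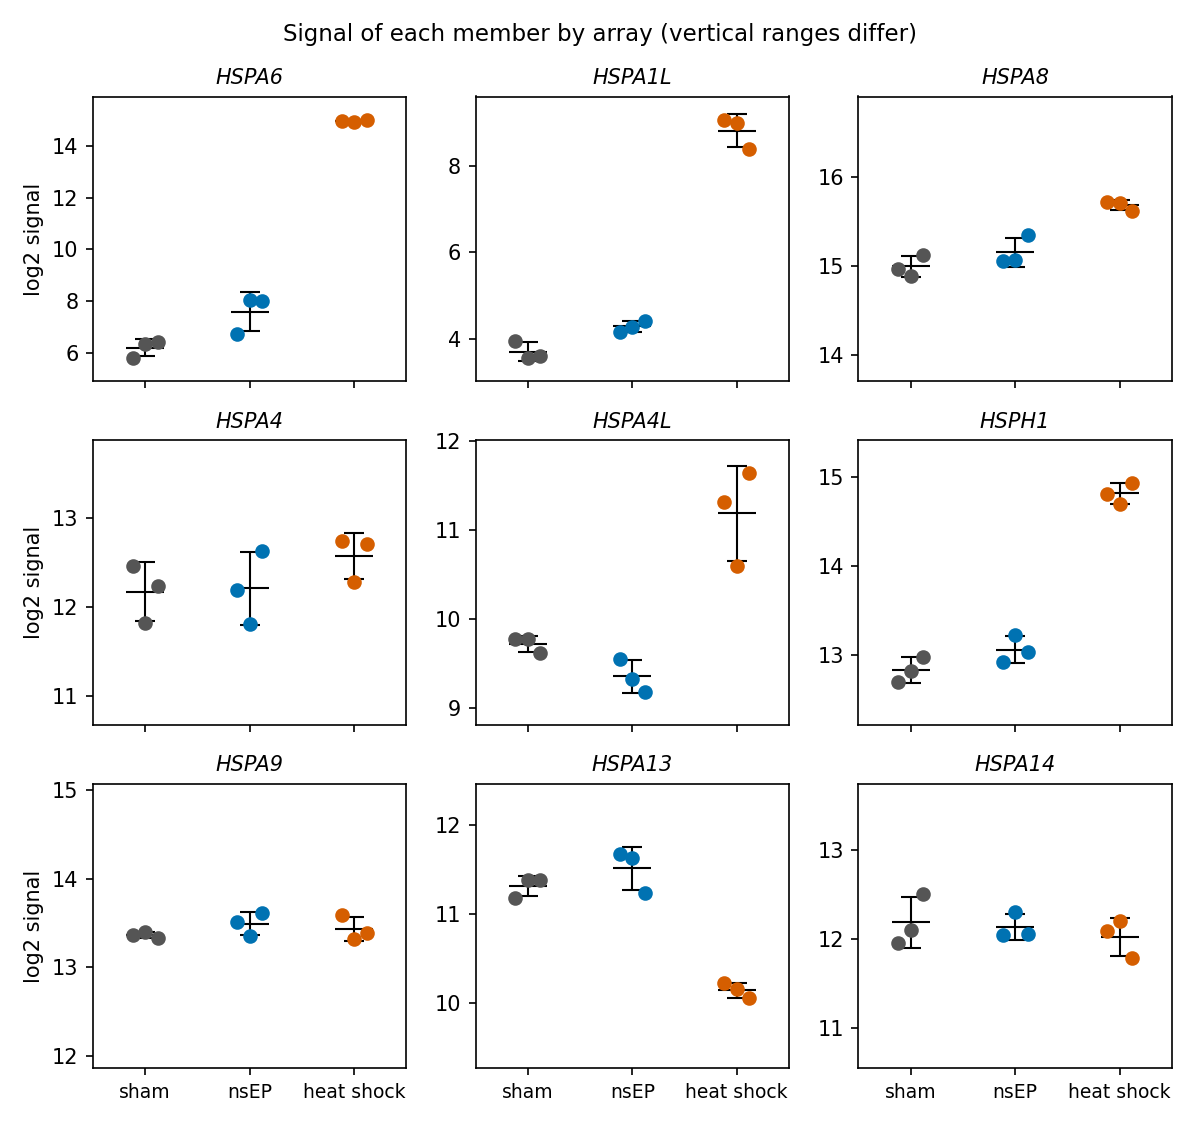
Log2 signal of each member at its brightest probe set, with 1 point per array for sham, nsEP and heat shock and the mean and SD (n = 3) as bars. Vertical ranges differ between panels. The HSPA8 panel shows the probe set shared with SNORD14C and SNORD14D. On the deposited scale heat shock stands above the other groups for HSPA6, HSPA1L, HSPA8, HSPA4L and HSPH1 and below them for HSPA13, and for HSPA8 the ratio to sham turned to -0.34 with the spike-in scaling.

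HSPA9, the mitochondrial HSP70 (mortalin) that pulls proteins through the inner membrane and folds them in the matrix, showed no called difference. At 200691_s_at it read 13.36, 13.40 and 13.34 in sham, 13.52, 13.35 and 13.61 after nsEP and 13.59, 13.32 and 13.39 after heat shock. All groups overlapped within a narrow range. The ratio after heat shock was 0.07 with a 95% interval of -0.24 to 0.38. After nsEP it was 0.13 with an interval of -0.18 to 0.44, or 0.07 without replicate 3. Over the 4 probe sets the nsEP ratios ran from -0.17 to 0.24, with 0 called and 0 at an unadjusted p under 0.05 by limma. Without replicate 3 the others gave 0.41 (200692_s_at, adjusted p = 0.388), -0.17 (200690_at) and -0.03 (232200_at). The 4 probe sets of HSPA9 had ratios of 0.07 to 0.27 after heat shock, with 0 called by limma and 0 at an unadjusted p under 0.05, and at 200691_s_at the ratio was -0.15 after quantile normalization, -0.24 with arrays centred and -0.96 with the spike-in scaling.

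HSPA13, a small HSP70 of the endoplasmic reticulum and microsomes, moved against the inducible members after heat shock. At 202557_at it read 11.18, 11.38 and 11.38 in sham, 11.67, 11.63 and 11.24 after nsEP and 10.22, 10.15 and 10.05 after heat shock. The heat shock arrays lay below all others, and sham and nsEP overlapped. The signal fell by 1.17 on the log2 scale after heat shock (SE 0.15, adjusted p = 0.000965, limma), and it was lower under each scaling, with ratios of -1.07, -1.48 and -2.20 for quantiles, centring and spike-ins.

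The 202558_s_at probe set of HSPA13 read 8.30, 8.64 and 9.05 in sham, 9.72, 9.94 and 9.62 after nsEP and 7.49, 8.66 and 7.86 after heat shock. Here the nsEP arrays lay above the other groups, and sham and heat shock overlapped. The nsEP difference of 1.10 ± 0.29 had an unadjusted p of 0.00217 and an adjusted p of 0.344, and did not pass. The 2 probe sets disagreed in size on nsEP, since 202557_at gave 0.20 ± 0.15, and without replicate 3 they gave 1.17 (adjusted p = 0.260) and 0.34 (adjusted p = 0.461). Set directly against nsEP, heat shock was lower at both, with ratios of -1.37 (adjusted p = 0.000332) and -1.76 (adjusted p = 0.00366).

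HSPA14, an HSP70 relative that helps new chains on the ribosome, showed no called difference. At 219212_at it read 11.96, 12.10 and 12.51 in sham, 12.05, 12.31 and 12.06 after nsEP and 12.09, 12.20 and 11.79 after heat shock. The groups overlapped. Its ratios were -0.16 after heat shock (95% interval -0.55 to 0.22) and -0.05 after nsEP (-0.43 to 0.33), or -0.01 without replicate 3. The other 2 probe sets gave 0.24 and 0.32 after heat shock, where heat shock arrays lay above sham, and neither passed (adjusted p = 0.391 and 0.261). With the spike-in scaling all 3 were negative, from -1.19 to -0.71, and 0 passed.

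To set inducible against constitutive members, the log2 ratio of 2 members was formed inside each array, where any factor that scales a whole array cancels. A scaling that acts unequally on bright and dim signals, such as quantile normalization, does not cancel and was not run on these ratios. After it, the heat shock ratios to sham were 0.22 for HSPA8 (224187_x_at) and -0.15 for HSPA9 (200691_s_at), against 0.69 and 0.07 as deposited. Over all probe sets of each gene they then ran from 0.19 to 0.59 for HSPA8 and from -0.15 to 0.18 for HSPA9. The gap between these 2 genes under that scaling therefore depends on the probe sets taken. HSPA6 (213418_at) over HSPA8 was 8.05, 8.01 and 8.17 above the sham mean in the heat shock arrays and 0.47, 1.78 and 1.45 above it in the nsEP arrays, while the sham arrays lay at -0.35, 0.24 and 0.11. Both exposures lay above sham with no overlap, which with 3 arrays against 3 gives an exact two-sided permutation p of 0.1, the smallest possible. HSPA6 over HSPA9 gave the same order, with means of 8.70 after heat shock and 1.27 after nsEP (exact permutation p = 0.1 each). In the nsEP arrays replicate 1 was again the lowest, at 0.38 against 1.86 and 1.55. Without nsEP replicate 3 the nsEP means were 1.13 over HSPA8 and 1.12 over HSPA9.

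The separation of nsEP from sham rested on 1 of the 2 HSPA6 probe sets. With 117_at in place of 213418_at, HSPA6 over HSPA8 was 0.36, 0.96 and 0.45 in the nsEP arrays and 0.01, 0.54 and -0.55 in the sham arrays, which overlapped (exact permutation p = 0.3). Over HSPA9 the nsEP mean was 0.62, again with overlap (exact permutation p = 0.2). The heat shock arrays stood above sham with either probe set, at means of 7.56 and 8.18 with 117_at (exact permutation p = 0.1 each).

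HSPH1 over HSPA4, the inducible against the constitutive HSP110, was 1.58 higher after heat shock (exact permutation p = 0.1, no overlap) and 0.19 higher after nsEP (exact p = 0.7), where the nsEP arrays at 0.08, 0.75 and -0.26 overlapped sham, and 0.41 higher without replicate 3. HSPH1 over HSPA8 was 1.3 higher after heat shock (exact p = 0.1) and 0.07 after nsEP (exact p = 0.8), or 0.17 without replicate 3. HSPA8 over HSPA9, cytosolic against mitochondrial, was 0.62 higher after heat shock (exact p = 0.1), at 0.50, 0.76 and 0.60, and 0.03 after nsEP (exact p = 0.9), or -0.0038 without replicate 3. A ratio of this kind shows that 2 transcripts changed unequally and not which of them stayed level.

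**Figure D3:**
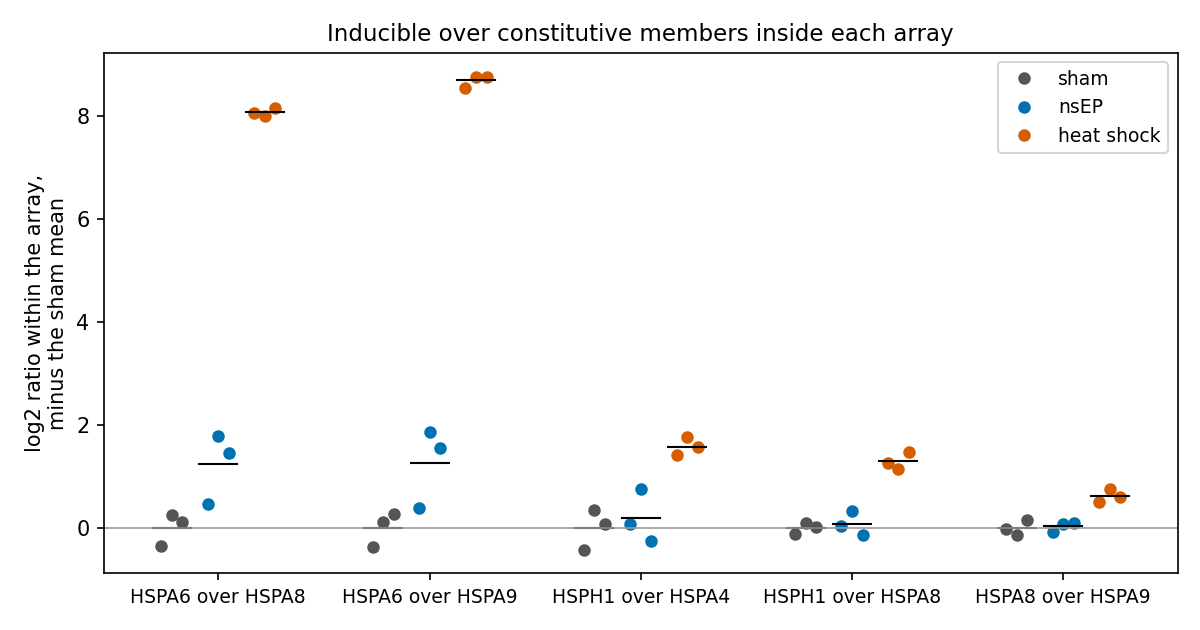
Log2 ratio of 2 members inside each array, minus the mean of the 3 sham arrays (vertical axis), for 5 pairs of members (horizontal axis), with 1 point per array and a line at each group's mean. Heat shock lies above sham for every pair, and nsEP lies above sham without overlap for the 2 ratios with HSPA6 at its 213418_at probe set, at means of 1.23 and 1.27.

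The partners of the HSP70 proteins were read at 35 genes in 5 lists, each at its brightest probe set. After heat shock 5 of the 35 rose and 2 fell, against 1.72% and 3.99% of all 19775 genes read in the same way. After nsEP 0 rose and 0 fell by limma, against 0.0506% and 0.0101% of genes, and 0 by the methods' t-test with the same adjustment. At an unadjusted p under 0.05, 1 was higher after nsEP (DNAJB1) and 0 were lower, near the shares of 2.49% and 2.91% over all genes. Without nsEP replicate 3 again 0 passed, with 6 at an unadjusted p under 0.05 in either direction against 8.49% of genes. The counts of the single lists stand beside the same shares. Among the other HSP70 genes 1 of 5 rose, HSPA2, which read 7.25, 7.28 and 7.12 in sham, 6.90, 7.04 and 7.11 after nsEP and 9.61, 9.91 and 9.61 after heat shock, a rise of 2.49 ± 0.21, or 1.46 with the spike-in scaling, where it did not pass. HSPA5, the HSP70 of the endoplasmic reticulum, had a ratio of -0.23 after heat shock (adjusted p = 0.458) and 0.30 after nsEP (adjusted p = 0.753), or 0.35 without replicate 3, and did not pass in either.

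Among the J-domain cochaperones of the cytosol, nucleus and ribosome, 2 of 10 rose after heat shock. DNAJB1, the classic heat-induced HSP40, read 11.92, 12.17 and 12.17 in sham, 12.31, 12.56 and 12.59 after nsEP and 15.23, 15.22 and 15.23 after heat shock, a rise of 3.14 ± 0.14. The 3 nsEP arrays lay above the 3 sham arrays, as they did at 5.07% of all probe sets. Among the partners this was also so for HSPA5, while for HSPA2 they lay below sham, as at 6.51% of all probe sets. DNAJB1 had 2 probe sets, and only the brighter is given. The difference of 0.40 did not pass (unadjusted p = 0.0166, adjusted p = 0.585, limma), and was 0.35 without replicate 3. DNAJB4 rose by 3.49 ± 0.20 after heat shock, and its nsEP ratio was 0.33 (adjusted p = 0.826), or 0.46 without replicate 3.

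Of the 9 exchange factors and adaptors, 2 rose and 1 fell after heat shock. BAG3, which couples HSP70 to autophagy, read 10.76, 10.83 and 11.13 in sham and 14.10, 13.43 and 14.09 after heat shock, a rise of 2.96 ± 0.19. STIP1, the bridge between HSP70 and HSP90, had a ratio of 0.58 (adjusted p = 0.0421) and BAG5 of -0.57 (adjusted p = 0.0487). Neither call held with any 1 of the 6 arrays left out, where adjusted p ran from 0.0994 to 0.154 for STIP1 and from 0.0850 to 0.182 for BAG5, and with the spike-in scaling STIP1 turned to -0.45 while BAG5 was -1.60 and passed.

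Of the 8 mitochondrial partners of HSPA9, 0 rose and 1 fell after heat shock. GRPEL2, a nucleotide exchange factor of HSPA9, read 11.50, 11.76 and 11.84 in sham, 11.56, 11.75 and 11.48 after nsEP and 10.88, 10.42 and 10.71 after heat shock. Its log2 ratio after heat shock was -1.03 ± 0.16 (adjusted p = 0.00321, limma), or -2.06 with the spike-in scaling. Its paralogue GRPEL1 had a ratio of -0.21 (adjusted p = 0.522). Of the heat shock factors and their binding protein, 3 were measured and 0 passed after either exposure, with HSF1 at 0.08 after heat shock, -0.95 there with the spike-in scaling, and -0.37 after nsEP, or -0.65 without replicate 3.

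The list medians after heat shock were 0.16 for the other HSP70 genes, 0.27 for the J-domain proteins, 0.32 for exchange factors and adaptors, 0.11 for the HSPA9 partners and 0.15 for the heat shock factors, beside 0.14 over all genes. After nsEP they were 0.12, 0.08, -0.03, -0.01 and 0.36, beside -0.02.

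**Figure D4:**
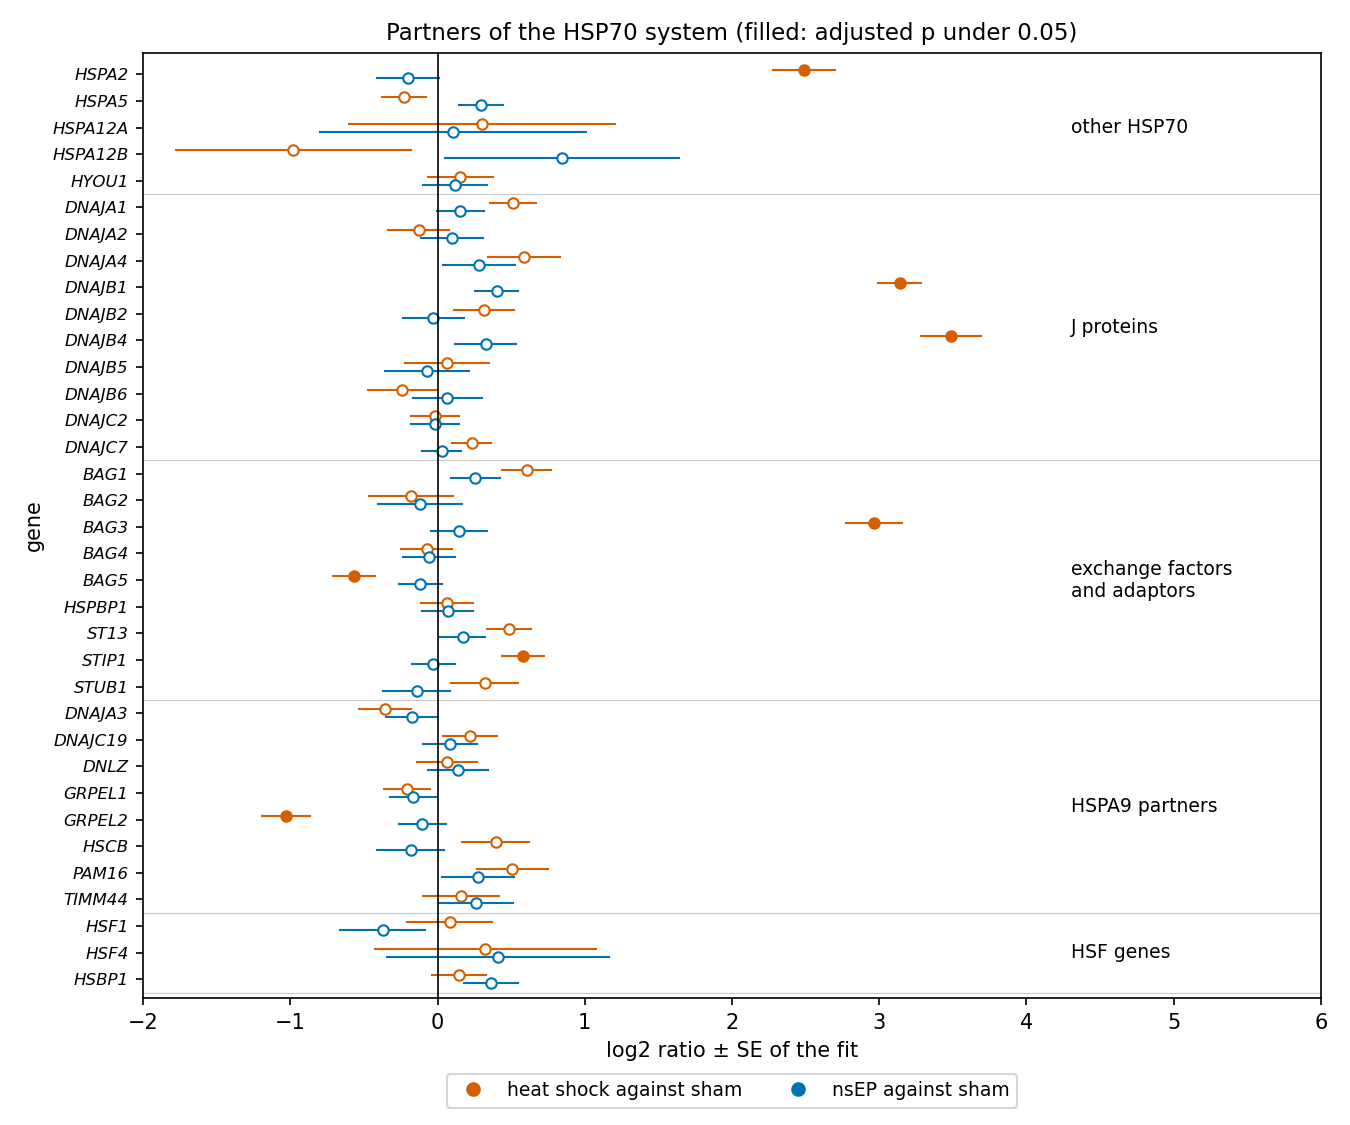
Log2 ratio to sham ± SE of the fit (horizontal axis) for 35 partner genes of the HSP70 proteins in 5 lists (vertical axis), after heat shock and after nsEP, filled where the adjusted p was under 0.05. DNAJB4, DNAJB1, BAG3 and HSPA2 lie at 2.49 to 3.49 after heat shock, and no nsEP point is filled.

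The genes with the pattern most like a member were found by the root mean square difference over the 9 arrays, each gene centred on its sham mean. For HSPA6 the nearest were PCK1 at 1.17, RGS2 at 1.19, RPPH1 at 1.70, FOSB at 1.79 and C17orf99 at 1.82, so 0 genes came within 1 on the log2 scale. Beside the nsEP ratio of 1.39 for HSPA6, those of RGS2 and FOSB were larger, at 2.02 and 3.58, while those of PCK1, RPPH1 and C17orf99 were smaller, at 1.12, 0.30 and 0.31. For HSPH1 the nearest were MSX1 and KLF10 at 0.22 each, TUFT1 and USPL1 at 0.23 each and PAPOLA-DT at 0.26. In all, 4200 genes came within 1 of HSPH1, so these were the nearest of many. For HSPA8 they were HSP90AB1 at 0.086, MYL6B at 0.087, C5orf46 at 0.099, RPL3 at 0.105 and ISG15 at 0.109, and since 15102 genes came within 1 of HSPA8, likeness to so flat a pattern tells genes apart poorly.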

How the data were processed

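Total RNA of 9 Jurkat samples was labelled and hybridised to Affymetrix human genome arrays of 54675 probe sets. The authors deposited log2 values of MAS5 signals, which are scaled to 1 trimmed mean per array, so a change of most transcripts 1 way is partly removed. Detection calls and scanner images were not used here. After 62 control probe sets were left out, 54613 were tested, of which 41091 had 1 gene symbol, 1801 several and 11721 none.

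All 9 arrays entered 1 fit in limma 3.58.1 (R 4.3.3), with 1 mean per group, a variance trend, two-sided tests and Benjamini-Hochberg adjustment over all 54613, called at an adjusted p under 0.05. A fold is 2 to the power of the log2 ratio. The fit was tested on simulated data. Where a gene had several probe sets, the brightest on average represented it. Ratios inside arrays were compared by exact permutation. With 3 arrays per group the number of arrays limits the precision.

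Named were all members at every probe set, up to 3 called genes per partner list with the largest ratio, and the 5 genes most like HSPA6, HSPH1 and HSPA8. HSPA5, GRPEL1 and HSF1 were added after their values were seen, as were the alternatives run on the partner genes and the ratios inside arrays with the other HSPA6 probe set. The members and lists were chosen with earlier results of these data known. Alternatives were the variance trend, the methods' t-test, 32 added signal units, a filter on dim probe sets, 3 scalings, 6 arrays only, array weights, a replicate block, the mean over a gene's probe sets and each array left out. The replicate numbers were not used as pairs in the main fit. Same-numbered arrays correlated across the groups at 0.25 to 0.44 for replicate 2 and at -0.24 to 0.24 for replicates 1 and 3. Whether the number marks shared handling was not tested, and results with it as a block are given below. Promoter windows and loci came from RefSeq tables of GRCh38.p14.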

Additional observations from a re-analysis of the deposited data

How the results depend on the processing

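Among the within-array ratios, HSPA6 over HSPA8 after heat shock was 7.55 with 32 signal units added and 7.71 with the mean of all probe sets of each gene, and HSPA6 over HSPA9 was 8.17 and 8.37. With HSPA6 read at 117_at, an alternative chosen after seeing the data, the ratios over HSPA8 and HSPA9 were 7.56 and 8.18 after heat shock and 0.59 and 0.62 after nsEP. With the mean of all probe sets, HSPH1 over HSPA4 after heat shock was 2.04 and HSPH1 over HSPA8 was 1.71. The ratios after heat shock stayed above 0 under every alternative run on them. After nsEP the small ratios crossed 0, since with the mean of all probe sets HSPH1 over HSPA4 was -0.09 and HSPH1 over HSPA8 was -0.10, and with single arrays left out they ran from -0.09 to 0.41 and from -0.06 to 0.17, and HSPA8 over HSPA9 from -0.04 to 0.11. Of the 22 probe sets, 5 were higher after heat shock than in sham at the study's thresholds for the methods' t-test and 0 lower, and with the spike-in scaling 5 were higher and 2 lower. Against nsEP, 5 were higher after heat shock at those thresholds, 4 with the t-test adjusted and 5 with the spike-in scaling, and 0 were lower in both forms of the t-test. With single arrays left out, between 8 and 9 were higher after heat shock than in sham, between 0 and 1 higher after nsEP than in sham (1 without nsEP replicate 1, HSPA6) and between 9 and 10 higher after heat shock than after nsEP. With the spike-in scaling HSPA8 after heat shock turned to -0.34 and STIP1 to -0.45. Of the partner genes, 3 were higher after heat shock with the spike-in scaling, and the 2 lower became 1 with quantile normalization, 1 with the replicate block, 0 without the variance trend and 0 in both forms of the t-test, and 1 with any single array left out. With the replicate number as a block, 9 of the 22 probe sets were higher and 1 lower after heat shock and 0 differed after nsEP, and HSPA6 after nsEP had an adjusted p of 0.130 by limma. The block ended the calls of STIP1 (adjusted p = 0.0510) and BAG5 (adjusted p = 0.0506). The numbers mark no shared culture or day in the labels, and of 9 correlations between same-numbered arrays not all were above 0.1. The cause of these changes was not tested. The t-test took the 6 arrays of a comparison and a fit with 1 array left out the 8 others, in place of 9. Dim signals limit HSPA1L most, and calls near the threshold (HSPA8, STIP1, BAG5) rest on all 3 arrays of each group.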
